A study of Homo sapiens with 9 samples.

Results

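NCI-H1993 is a lung adenocarcinoma line known to carry extra copies of the receptor gene MET, and its baseline transcriptome was described here from the control cultures alone. The members were the 3 arrays labelled siControl, of 9 arrays in the series. Each came from an independent culture of NCI-H1993 grown in RPMI with fetal bovine serum and harvested 72 h after transfection with a control siRNA. The other 6 arrays carried siRNAs against TDRD9 and were not compared here, so no groups were compared and no test was made. Every value is therefore from transfected cells. Total RNA was read on PrimeView arrays, which carry 1 or more probe sets per gene, and a value is the log2 signal of a gene's brightest single-gene probe set.

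Lung adenocarcinoma arises from epithelial cells of the distal airways and alveoli, which hold together through E-cadherin and keratins and are specified by factors such as NKX2-1. MET is the receptor tyrosine kinase for hepatocyte growth factor and signals through adaptors such as GRB2 and SHC1 to the RAS and ERK kinases. TDRD9 is a Tudor domain RNA helicase of the germ line, where PIWI proteins and their small RNAs (piRNAs) silence transposons.

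The array held 49395 probe sets, of which 44988 named a single gene, and these measured 18132 genes. The pairwise correlations between the 3 arrays across genes were 0.9965 to 0.9976, and the array medians were 5.75 to 5.77. The median SD of a gene over the 3 cultures was 0.0939 on the log2 scale (quartiles 0.0566 and 0.142), and 18 genes had an SD over 0.5. Having 3 arrays limits how precise a mean can be.

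Signals were read against 333 olfactory receptor genes, which serve smell in the nasal epithelium. Their median was 3.29, and the 95th percentile of their means, 4.87, was taken as the background ceiling. A gene was called above background when all 3 arrays exceeded that ceiling, which held for 11761 genes (64.9%), and near background when none did, which held for 5930 (32.7%). The high band was set at 10.07, the 90th percentile of the gene means, and 1686 genes (9.3%) reached it in all 3 arrays. Of the others above background, 8365 lay in the middle band and 1710 lay within 1 log2 unit of the ceiling, the low band. The remaining 441 genes had arrays on both sides of the ceiling. Olfactory receptor genes had a mean of 1.08 probe sets each, against 3.19 for high, 2.85 for middle and 1.82 for near-background genes. A gene with several sets has more chances that its brightest exceeds the ceiling. With the mean of all probe sets of a gene instead, 10538 genes were above background. The signal of a probe set also depends on its sequence, so genes within a band are not ranked against each other.

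**Figure D1:**
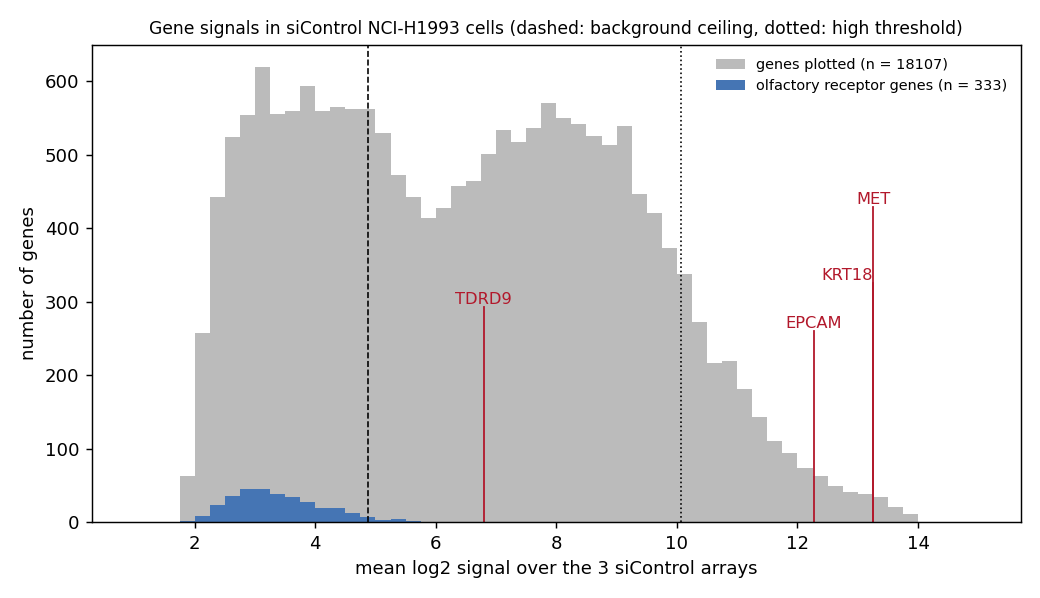
Histogram of the mean log2 signal over the 3 siControl arrays (x axis) against the number of genes (y axis) for 18107 genes, with 25 Y-linked or X-inactivation genes left out, and for the 333 olfactory receptor genes. The dashed line is the background ceiling at 4.87 and the dotted line the high threshold at 10.07. MET, KRT18 and EPCAM stand right of the dotted line and TDRD9 at 6.80 stands between the lines.

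The ceiling can err in both directions. Ribosomal protein gene RPL27A gave 4.11, 4.44 and 4.62, and H3-3A, which encodes a histone of all cell types, gave 1.96, 2.00 and 1.96, so a signal near background did not show that a gene was silent. With probe sets that name several genes also allowed, RPL27A had a mean of 6.21 and H3-3A one of 13.07, in the low and high bands. Conversely, 27 of 82 keratin-associated protein genes, which belong to the hair shaft, were above the ceiling, led by KRTAP6-1 at 10.14, 10.00 and 10.00. Without the sets named _s_at or _x_at, which can bind similar transcripts, 13 of the 64 hair genes still measured were above background. KRTAP6-1 was then near background at 4.21. The array's background control probe sets rose with the number of G and C bases in their probes, from 2.94 at 15 bases to 4.86 at 18, 6.23 at 21 and 8.10 at 24. The base composition of the gene probes was not available here. With the 95th percentile of the hair genes, 7.75, as the ceiling, chosen after these values were seen, 6164 genes remained above it.

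The 4 markers chosen for the line were all above background. MET gave 13.22, 13.26 and 13.30 (mean 13.26 ± 0.0405, SD, n = 3), at the 99.6th percentile of all genes. EPCAM, an adhesion molecule of epithelia, gave 12.28, 12.29 and 12.25, and KRT18, a keratin of simple epithelia, gave 13.31, 13.22 and 13.23. All probe sets of these 3 genes were above background, although both KRT18 sets are of a kind that can also bind similar transcripts. TDRD9 gave 6.65, 6.80 and 6.93 (mean 6.80 ± 0.140, SD, n = 3), in the middle band at the 53.8th percentile. TDRD9 has a single probe set, and its call was lost with the hair-gene ceiling of 7.75.

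All 27 measured epithelial genes were above background (beside 64.9% of all genes) and 10 were high, with a median of 9.73 against 6.43 over all genes. Without the sets named _s_at or _x_at, 19 of the 20 still measured were above background. Keratin genes of simple epithelia led the list: KRT19 gave 13.32, 13.40 and 13.39, KRT7 gave 12.98, 13.04 and 13.03, and KRT8 gave 13.16, 12.85 and 12.94. CDH1, which encodes E-cadherin, gave 11.57, 11.62 and 11.59. The splicing regulator ESRP1, the desmosome genes DSP and JUP and the lipid raft gene MAL2 were also high. Lower in the list were GRHL2, a regulator of epithelial junctions with 1 of 5 probe sets above background, at 6.13, and the tight junction gene TJP3, in the low band at 5.65, 5.55 and 5.61. With the hair-gene ceiling the epithelial genes near background included GRHL2, TJP3 and CLDN3, the last at 6.41. With the mean of all probe sets of a gene, GRHL2 was on both sides.

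Of the 24 measured genes of the lung lineage list, 12 were above background and 9 near it. FOXA1, a forkhead factor of endodermal epithelia, gave 11.22, 11.36 and 11.37, and the mucin MUC1 gave 11.09, 11.15 and 11.27. Without the sets named _s_at or _x_at, MUC1 lay in the low band at 5.84. NKX2-1, the defining transcription factor of the lung, gave 6.20, 6.03 and 6.07, in the middle band. NAPSA, which encodes an aspartic protease of alveolar type II cells, gave 6.55, 6.60 and 6.56, also in the middle band. The surfactant genes SFTPA1, SFTPA2 and SFTPD and the club cell gene SCGB1A1 were near background at 2.70, 2.66, 3.46 and 3.92. With probe sets that name several genes also allowed, SFTPA1 and SFTPA2 both lay in the middle band at 6.54. SFTPC lay at 6.20 with 4 of 7 probe sets above background and SFTPB at 5.22 with 1 of 5, while ABCA3, the lipid transporter of lamellar bodies, gave 8.19, 8.24 and 8.52 and the airway mucin MUC5B gave 8.71, 8.76 and 9.03. The calls of NKX2-1, NAPSA, SFTPC and SFTPB were lost with the hair-gene ceiling.

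Because the submitters' extraction and labelling notes name another, intestinal line, the intestinal genes were examined too. Of 18 measured, 11 were near background, among them the adhesion gene CDH17 at 3.31, 3.29 and 3.29, the brush border gene VIL1 at 3.09, 3.07 and 3.40 and the keratin gene KRT20 at 3.41, 3.31 and 3.63. Above background were 5, the trefoil factor TFF1, high at 10.72, 10.98 and 10.74, the homeobox gene CDX2 at 6.41, 6.51 and 6.45, and PHGR1 at 5.71, GPA33 at 5.19 and MUC13 at 5.05 in the low band. The homeobox gene CDX1 and the stem cell factor ASCL2 had arrays on both sides of the ceiling.

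Lists of other lineages held genes on either side of the ceiling. Of 9 squamous and basal genes 6 were above background (66.7%, beside 64.9% of all genes). KRT14 was near background at 4.49 and KRT5 straddled the ceiling, whereas TRIM29 at 7.96 and S100A2 at 7.56 lay in the middle band. Of 12 neuroendocrine genes 8 were near background, including the granule protein gene CHGA at 2.73 and the transcription factor gene INSM1 at 3.38, whereas SYP at 6.30 and NCAM1 at 5.87 were above it, the latter with 1 of 6 probe sets. Immune genes were near background for 7 of 13, with the pan-leukocyte gene PTPRC at 3.49, 3.82 and 3.99, and above it for 4, among them CD14 at 6.95 and TYROBP at 6.36. Endothelial genes were near background for 6 of 10, with the cadherin gene CDH5 at 3.78, 4.17 and 4.05, and above it for 4, among them ESAM at 7.32 and TIE1 at 6.43. Fibroblast genes were near background for 6 of 10, with COL3A1 at 2.60 and DCN at 2.91, and above it for 3, among them FBLN1 at 9.10. With the hair-gene ceiling of 7.75, S100A2, SYP, NCAM1, CD14, TYROBP, ESAM and TIE1 were near background, while TRIM29 stayed above it. With the mean of all probe sets of a gene, SYP, NCAM1 and TIE1 were near background, TYROBP was on both sides and ESAM was low.

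Mesenchymal genes divided evenly. Of 18 measured, 9 were above background and 9 near it. VIM, which encodes the filament protein vimentin, gave 9.68, 9.11 and 9.86, FN1, which encodes fibronectin, gave 10.53, 10.39 and 11.23, and the repressor SNAI2 gave 7.98, 8.06 and 8.23. VIM and FN1 varied between cultures more than most genes, with SDs of 0.393 and 0.449. The mesenchymal regulators TWIST1 at 2.28 and ZEB2 at 4.11 were near background, ZEB1 was at 6.35, and N-cadherin gene CDH2 was in the low band at 5.03.

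**Figure D2:**
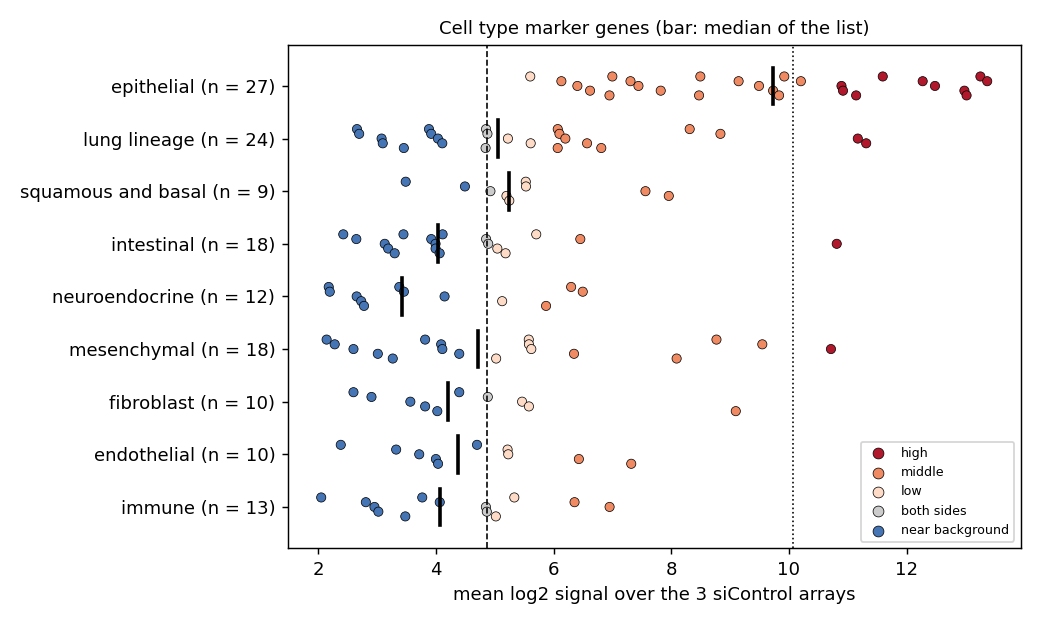
Mean log2 signal over the 3 siControl arrays (x axis) of each measured gene in 9 cell type marker lists (rows), coloured by signal band, with a bar at the list median, the ceiling dashed and the high threshold dotted. All 27 epithelial genes lie right of the ceiling, with a median of 9.73, while the medians of the intestinal (4.03), neuroendocrine (3.42), immune (4.07), endothelial (4.37) and fibroblast (4.21) lists lie left of it.

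Receptor tyrosine kinases carry growth factor signals across the membrane. Of 46 measured, 26 were above background (56.5%, beside 64.9% of all genes), 15 near it and 5 on both sides, with a median of 5.30. MET and the collagen receptor gene DDR1, at 10.84, 10.94 and 10.86, were the high ones, or 2 of 46. The 6 probe sets of MET had means from 8.93 to 13.26, all far above the ceiling. EGFR gave 8.28, 8.24 and 8.37 with probe sets spread from 3.08 to 8.29. Its partners ERBB2, at 7.72, 7.92 and 7.65, and ERBB3, at 7.40, 7.53 and 7.27, were also in the middle band, as were EPHA2 at 9.97, IGF1R at 8.23 and MST1R, which encodes the relative of MET named RON, at 7.69. The fusion oncogene receptors ALK at 4.07, ROS1 at 2.79 and RET at 2.73 were near background, as was KIT at 2.86. AXL, a receptor of the TAM family, gave 4.98, 4.66 and 5.77, on both sides of the ceiling and with replicate 3 apart.

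**Figure D3:**
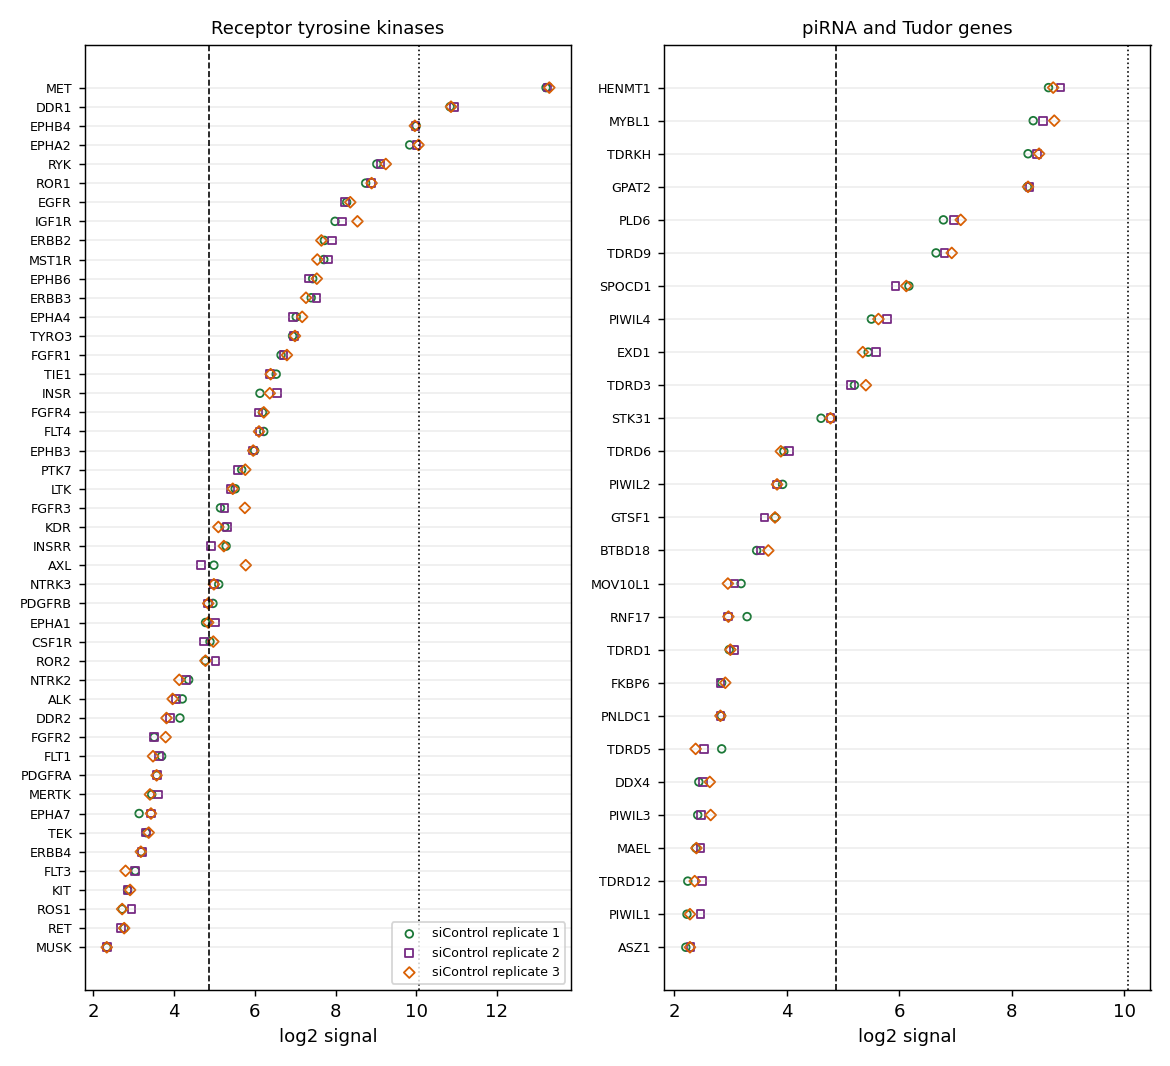
Log2 signal (x axis) of each siControl array for 46 receptor tyrosine kinase genes (left) and 27 piRNA and Tudor genes (right), ordered by mean, with the ceiling dashed and the high threshold dotted. MET and DDR1 lie beyond the dotted line on the left, and on the right 10 genes lie beyond the ceiling, TDRD9 among them.

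The genes next to MET on chromosome 7 were high together, though of its 16 measured neighbours 5 were high and 7 near background. In RefSeq order, MET sits in a run of 5 measured genes that were all in the high band, from TES through CAV2, CAV1 and MET to CAPZA2. The LIM protein gene TES gave 12.38, 12.49 and 12.59. The caveola genes CAV2 and CAV1 gave 13.05, 13.05 and 13.22, and 12.57, 12.57 and 12.68. The actin capping gene CAPZA2 gave 12.05, 12.23 and 12.26. On either side the run ended at genes near background, TFEC at 2.40 and WNT2 at 3.73. Further out, the tetraspanin gene TSPAN12 was high at 12.02, 12.06 and 12.02, whereas the chloride channel gene CFTR gave 5.31, 5.79 and 5.78 and the germ cell gene ASZ1 was near background at 2.26. Over the autosomes and the X chromosome, 4 of 17989 windows of 5 neighbouring measured genes were high throughout, in 3 runs, and all 3 runs lay on chromosome 7. The run was noticed after the values were seen, and DNA copy number was not measured on these arrays.

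**Figure D4:**
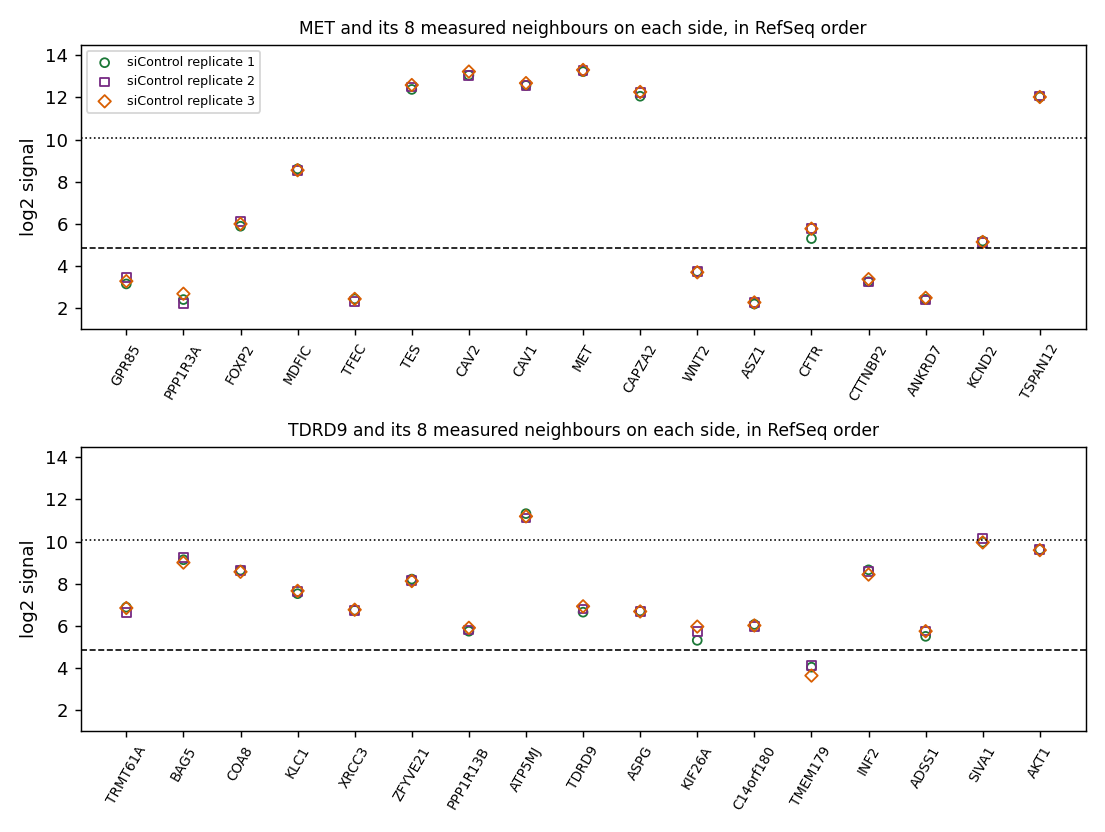
Log2 signal (y axis) of each siControl array for MET (top) and TDRD9 (bottom) and the 8 measured genes on each side in RefSeq order (x axis), with the ceiling dashed and the high threshold dotted. Around MET, TES to CAPZA2 lie above the dotted line between TFEC at 2.40 and WNT2 at 3.73, while 15 of 16 neighbours of TDRD9 lie above the ceiling.

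The ligand of MET was not seen. HGF, which encodes hepatocyte growth factor, gave 3.21, 3.23 and 3.21, near background, as did HGFAC, a protease gene that activates it, at 3.89. The cell surface activators of the factor were in the middle band, ST14, which encodes matriptase, at 7.44 and HPN, which encodes hepsin, at 6.35. Their membrane inhibitors were strong: SPINT2 gave 12.63, 12.68 and 12.62 and SPINT1 gave 9.57, 9.57 and 9.33. Among 28 growth factor ligands, 18 were above background (64.3%, beside 64.9% of all genes). Of the EGF family, EREG, which encodes epiregulin, was the high one at 10.71, 10.84 and 10.90, EPGN gave 9.99, 9.88 and 9.48, HBEGF had a mean of 9.34, and TGFA gave 8.52, 8.62 and 8.36. EGF itself was near background at 3.05. VEGFA, the angiogenic factor, gave 9.74, 9.98 and 9.75, and MDK, which encodes midkine, gave 9.92, 9.74 and 9.82. Without the sets named _s_at or _x_at, VEGFA lay in the low band at 5.81.

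Downstream of the receptor, 21 of 22 measured adaptors and partners of MET were above background (95.5%, beside 64.9% of all genes) and 5 were high. SHC1 gave 12.53, 12.62 and 12.53 and GRB2 gave 10.39, 10.50 and 10.52. GAB1, the docking protein of MET, was in the middle band at 5.91 with 2 of 8 probe sets above the ceiling, and the ubiquitin ligase CBL, which takes MET off the surface, gave 7.75, 8.13 and 8.49. Genes that ERK switches on were all above background, 20 of 20 (beside 64.9% of all genes), with a median of 8.92. SPRED3, in the low band at 5.44, ETV1 and SPRY4 were near background with the mean of all probe sets of a gene. With the hair-gene ceiling these genes and EGR1 were near background. The phosphatase DUSP6 gave 10.38, 10.62 and 10.50, DUSP4 gave 11.02, 11.13 and 10.92, PHLDA1 gave 11.68, 11.73 and 11.58, and the cyclin CCND1 gave 11.10, 10.92 and 10.82. The ETS factors ETV5 at 9.17 and ETV4 at 8.14, the feedback inhibitor SPRY2 at 7.65 and the early response gene EGR1 at 6.58 were in the middle band. No other condition was compared, so these levels do not say whether the pathway was active.

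All 22 measured drivers and suppressors of lung adenocarcinoma were above background, and 17 with the hair-gene ceiling. The histone methyltransferase gene KMT2D, the low band member at 5.10, 4.92 and 5.22, was near background with the mean of all probe sets, with sets that name several genes, and with the ceiling from the 99th percentile or from other silent genes. CDKN2A, which encodes the cell cycle inhibitor p16 among others, was high at 11.15, 11.21 and 11.32, while the retinoblastoma gene RB1 gave 7.18, 7.25 and 7.64. MYC gave 10.25, 10.31 and 10.30. SMARCA4, a chromatin remodeller, was at 9.84, KEAP1 at 9.39 and STK11, which encodes the kinase LKB1, at 6.77. RB1 and STK11 lost their calls with the hair-gene ceiling. Transcript levels do not show mutations.

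The germ line genes that TDRD9 works with were mostly near background. Of 27 measured piRNA and Tudor genes, 17 were near background, 7 in the middle band, 3 low and none high, with a median of 3.73. The PIWI proteins bind the small RNAs themselves: PIWIL1 gave 2.23, 2.47 and 2.28, PIWIL2 gave 3.93, 3.83 and 3.83, PIWIL3 gave 2.42, 2.47 and 2.65, and PIWIL4, the low band exception, gave 5.50, 5.78 and 5.63. In mice TDRD9 acts with the PIWIL4 counterpart. The PIWIL4 call was lost with the ceiling taken from other silent genes, 5.85, where TDRD9 kept its call.

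Of the germ cell helicase and granule genes, DDX4 at 2.53, MAEL at 2.41, TDRD1 at 3.01, TDRD5 at 2.58, TDRD12 at 2.37 and ASZ1 at 2.26 were near background. The genes above the ceiling fell elsewhere in the pathway. HENMT1, which methylates the ends of piRNAs, gave 8.65, 8.87 and 8.74. MYBL1, the transcription factor of piRNA clusters in the mouse testis, gave 8.38, 8.55 and 8.76. The outer mitochondrial membrane genes TDRKH, at 8.29, 8.45 and 8.49, GPAT2, at 8.28, 8.31 and 8.29, and PLD6, at 6.78, 6.98 and 7.09, were in the middle band too. SPOCD1, which links piRNAs to DNA methylation in mice, was at 6.08. Several of these genes are also transcribed outside the germ line, and which of them make protein in these cells was not measured.

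The neighbours of TDRD9 on chromosome 14 were nearly all above background, 15 of 16 (beside 64.9% of all genes). Among them PPP1R13B at 5.82, KIF26A at 5.68 and ADSS1 at 5.67 were in the low band, and near background with the hair-gene ceiling. TDRD9 lies between ATP5MJ, a subunit gene of the ATP synthase that was high at 11.33, 11.12 and 11.20, and ASPG at 6.71, 6.67 and 6.69. The kinase gene AKT1 gave 9.62, 9.63 and 9.59 and the proapoptotic gene SIVA1 gave 9.97, 10.15 and 9.96. TMEM179, at 4.05, 4.14 and 3.65, was the neighbour near background.

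Promoters were examined because methylation of CG pairs in them is a known means of silencing germ line genes. The window of each gene around its start in RefSeq was matched for 14425 of 18132 genes. It was called CpG-rich where over 50% of its bases were G or C and the number of CG pairs was over 0.6 of that expected. CpG-rich windows made up 86.7% in the high band, 81.8% in the middle band, 56.3% in the low band and 35.4% near background, against 65.0% over all matched genes and 46.8% of all 27305 promoter windows. Among the piRNA and Tudor genes, 16 of 22 matched were CpG-rich, and of the 15 of them near background 11 were (73.3%). Of the cancer testis antigens near background 8 of 29 were (27.6%), of the immune genes near background 0 of 5, and of the keratins 0 of 24. Other lists had most of their near-background genes CpG-rich too. These included zinc finger ZNF genes (75 of 115), receptor tyrosine kinases (9 of 15), collagens (10 of 17), HOX genes (5 of 7) and neuroendocrine genes (4 of 5). The high share was therefore not particular to the piRNA and Tudor genes.

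The promoter windows of TDRD9, MET, PIWIL1 and PTPRC are given because they show this contrast: TDRD9 and MET were above background and CpG-rich, PIWIL1 was near background and CpG-rich, and PTPRC was near background and CpG-poor. They are from RefSeq, build GRCh38.p14, all on the plus strand, 5′ to 3′, with each CG pair, which reads the same on both strands, in capitals.
TDRD9, chr14:103928206-103928505: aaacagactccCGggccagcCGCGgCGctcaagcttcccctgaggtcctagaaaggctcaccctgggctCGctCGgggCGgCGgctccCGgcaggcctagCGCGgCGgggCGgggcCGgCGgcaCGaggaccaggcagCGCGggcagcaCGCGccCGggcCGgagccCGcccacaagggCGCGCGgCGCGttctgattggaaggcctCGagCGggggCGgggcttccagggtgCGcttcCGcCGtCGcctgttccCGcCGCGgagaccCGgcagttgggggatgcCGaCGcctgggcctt
MET, chr7:116671946-116672245: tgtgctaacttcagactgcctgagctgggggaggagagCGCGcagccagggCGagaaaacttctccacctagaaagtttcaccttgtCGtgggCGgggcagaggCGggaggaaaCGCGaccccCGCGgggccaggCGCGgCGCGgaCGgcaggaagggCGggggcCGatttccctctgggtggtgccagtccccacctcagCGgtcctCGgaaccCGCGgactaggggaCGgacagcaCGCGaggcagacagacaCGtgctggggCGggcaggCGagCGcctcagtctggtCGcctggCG
PIWIL1, chr12:130337637-130337936: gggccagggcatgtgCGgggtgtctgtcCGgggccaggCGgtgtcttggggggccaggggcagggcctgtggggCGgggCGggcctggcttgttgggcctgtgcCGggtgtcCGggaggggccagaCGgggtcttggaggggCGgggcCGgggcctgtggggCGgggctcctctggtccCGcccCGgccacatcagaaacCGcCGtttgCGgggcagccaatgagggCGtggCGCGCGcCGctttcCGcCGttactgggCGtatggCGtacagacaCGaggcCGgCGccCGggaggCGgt
PTPRC, chr1:198638790-198639089: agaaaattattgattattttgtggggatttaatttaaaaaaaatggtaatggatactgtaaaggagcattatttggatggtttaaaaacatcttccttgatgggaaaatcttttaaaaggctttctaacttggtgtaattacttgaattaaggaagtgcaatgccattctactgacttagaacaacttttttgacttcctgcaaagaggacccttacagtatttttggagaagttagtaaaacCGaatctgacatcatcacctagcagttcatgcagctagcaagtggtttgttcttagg
The TDRD9 window held 41 CG pairs at a G and C share of 76.3%, the MET window 30 at 69.3%, the PIWIL1 window 30 at 75.7% and the PTPRC window 1 at 33.7%. Methylation was not measured in these files.

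Of 28 genes of DNA methylation and heterochromatin 27 were above background. The maintenance methyltransferase gene DNMT1 gave 10.37, 10.51 and 10.64, and its partner UHRF1 gave 9.42, 9.48 and 9.51. The de novo enzymes DNMT3A at 7.51 and DNMT3B at 6.17 and the oxidase TET1 at 6.23 were in the middle band, and the germ cell cofactor DNMT3L was near background at 4.31. Cancer testis antigens, germ cell genes often derepressed in tumours, were near background for 34 of 41. PRAME was the brightest at 8.09, 8.21 and 8.03, followed by MAGEC1 at 6.56, 6.44 and 6.70. MAGEA4 at 3.91 and CT83 at 4.39 were near background. In the microRNA machinery 14 of 15 genes lay in the middle band, with the nuclease DICER1 at 8.83, 9.09 and 9.23 and the effector AGO2 at 9.05, 8.94 and 8.91, while AGO4 was near background at 4.57.

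Ribosomal and mitochondrial genes lay largely in the high band. Of 68 cytosolic ribosomal protein genes 63 were high, with a median of 13.30, and 17 of the 20 brightest genes encoded them, RPS2 among them at 14.28, 14.27 and 14.32. Without the sets named _s_at or _x_at, which can bind similar transcripts, 39 of the 68 were still measured, of which 29 were above background, 16 high and 9 near background, and RPS2 lay in the middle band at 7.96. The other 3 of the brightest were the calcium-binding protein gene S100P, at 13.98, 14.01 and 13.99, PABPC1, whose product binds the tails of mRNAs, at 13.75, 13.79 and 13.77, and the ATP synthase gene ATP5MF at 13.66, 13.68 and 13.65, which was near background at 3.79 without those sets. Of 82 oxidative phosphorylation subunits 68 were high (46 of 68 measured without those sets), and the 5 near background included the muscle isoform COX7A1 at 3.84 and the testis isoform COX7B2 at 2.89. Of 35 proteasome subunits 24 were high, with the testis subunit PSMA8 at 2.38 and the thymus subunit PSMB11 at 2.62 near background. Of 9 chaperonin subunits 8 were high, and the testis subunit CCT6B was near background at 4.75. All 74 mitochondrial ribosomal protein genes were above background.

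**Figure D5:**
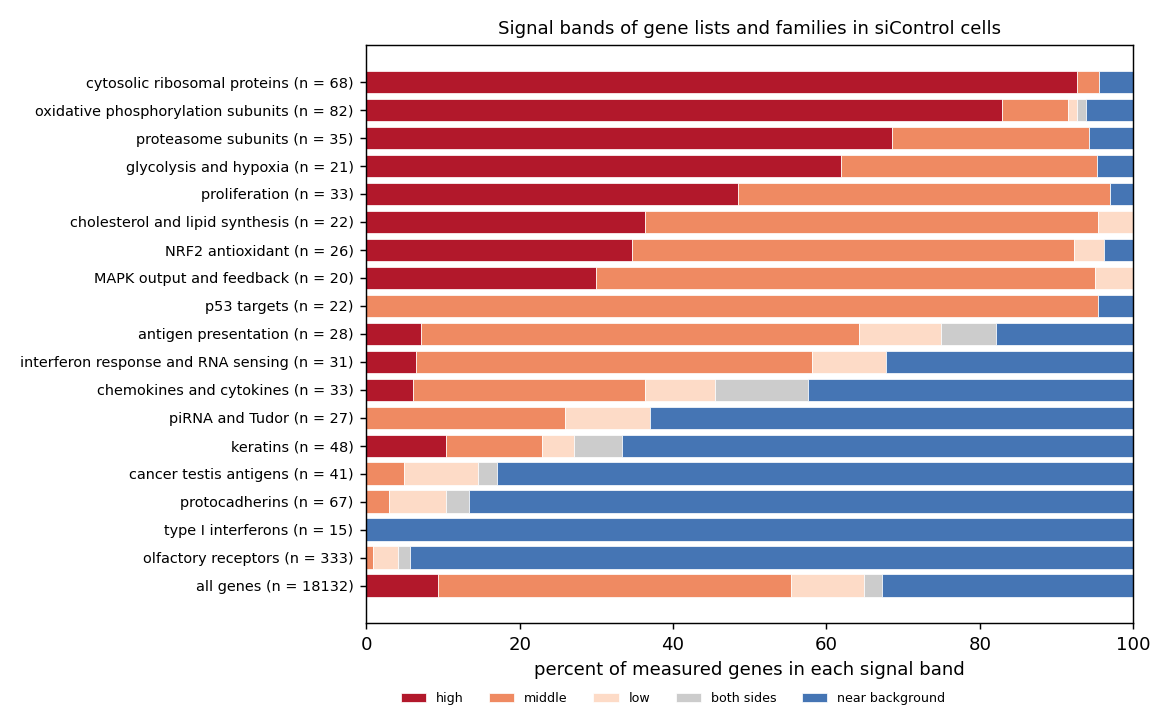
Percent of measured genes (x axis) in each signal band for 18 lists and families and for all 18132 genes (rows), with the number measured in brackets. The high band takes 92.6% of cytosolic ribosomal protein genes and 82.9% of oxidative phosphorylation subunits, and all 15 type I interferon genes are near background.

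The cultures carried nearly all of the listed cell cycle transcripts. Of 33 proliferation genes 32 were above background and 16 high, with a median of 10.17. MCM7, a replicative helicase subunit, gave 13.28, 13.35 and 13.38, and the mitotic kinase CDK1 gave 12.08, 12.26 and 12.24. MKI67, the gene of the Ki-67 antigen, gave 9.94, 10.02 and 10.30. CCND2 was the member near background, at 3.22, 3.90 and 3.48, while its relative CCND1 was high. Genes induced by p53 lay in the middle band for 21 of 22, with the cell cycle inhibitor CDKN1A at 9.16, 9.29 and 9.29 and MDM2 at 8.64, 8.54 and 8.70, and EDA2R was near background at 3.62. In the BCL2 family the survival gene MCL1 was high at 10.80, 10.94 and 10.86, BCL2 was low at 5.82 with 2 of 6 probe sets above the ceiling, and BCL2A1 was near background at 2.48.

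Metabolic genes were well represented in the high band. Of 21 glycolysis and hypoxia genes 13 were high, with LDHA at 13.51, 13.59 and 13.59 and GAPDH at 13.25, 13.17 and 13.24. The hypoxia factors EPAS1 and HIF1A were high, at 12.69, 12.80 and 12.67 and at 11.56, 11.64 and 11.79. EGLN3, a target of theirs, was near background at 4.11, 4.45 and 3.59. All 22 cholesterol and lipid synthesis genes were above background and 8 were high, led by the desaturase SCD at 12.63, 12.84 and 12.81. The unfolded protein and amino acid response list was above background in 18 of 18. Its high members included the chaperone HSPA5 at 12.47, the factor ATF4 at 11.48 and the asparagine synthetase ASNS at 11.59, 11.66 and 11.56. PHGDH, which opens serine synthesis, was in the low band at 5.82 but in the high band at 11.92 with probe sets that name several genes also allowed.

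Genes of the NRF2 antioxidant response were above background for 25 of 26 and high for 9. NQO1 gave 12.35, 12.24 and 12.13, TXNRD1 gave 12.51, 12.50 and 12.52 and PRDX1 gave 13.11, 13.08 and 13.11. The factor itself, NFE2L2, gave 10.68, 10.78 and 10.75. The aldo-keto reductase genes, known targets in lung cancer, were in different bands: AKR1C1 was near background at 3.43, 3.55 and 3.27, AKR1C2 was low at 5.29, and AKR1C3, at 7.26, 7.26 and 7.09, and AKR1B10, at 6.36, were in the middle band. The near-identical AKR1C genes share sequence, so their single-gene probe sets may not separate them.

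Interferon genes themselves were near background, 15 of 15, with IFNB1 at 2.86. Of 31 interferon response and RNA sensing genes 21 were above background (67.7%, beside 64.9% of all genes) and 10 near it. The editing enzyme ADAR gave 12.47, 12.55 and 12.67, ISG15 gave 10.19, 10.48 and 10.20 and IFIT1 gave 7.82, 7.87 and 8.34. MX1 was near background at 3.58, and so were BST2 at 2.64 and TLR3 at 2.08. In the pathway that senses cytosolic DNA, CGAS was in the middle band at 6.77, 6.66 and 6.55 while its adaptor STING1 was near background at 4.58, 4.41 and 4.48. Class I antigen presentation was present, with B2M at 12.63, 12.72 and 12.64 and HLA-C at 9.27, 9.27 and 9.05, and the class II gene HLA-DRA was near background at 2.90. CD274, which encodes the checkpoint ligand PD-L1, was near background at 3.96, 3.98 and 3.43.

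Of 33 chemokine and cytokine genes 15 were above background. MIF gave 12.71, 12.74 and 12.69 and IL18 gave 10.46, 10.52 and 10.41, the high ones. CXCL8 gave 7.67, 7.99 and 7.47, whereas CCL2 at 2.62 and CXCL10 at 2.57 were near background.

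Secreted and mucosal products fell at both ends of the scale. Of 23 measured, 6 were high and 11 near background. AGR2, a disulfide isomerase of mucus-secreting cells, gave 13.33, 13.29 and 13.24. The adhesion gene CEACAM6 gave 12.11, 12.04 and 11.93, the gastric annexin ANXA10 gave 11.71, 11.83 and 11.84, the protease inhibitor TFPI2 gave 11.40, 11.36 and 11.22, SLPI gave 10.86, 10.88 and 10.58, and AGR3 gave 10.68, 10.67 and 10.42. Near background were the antiprotease SERPINA1 at 3.49, the airway protein BPIFA1 at 3.36 and the immunoglobulin carrier PIGR at 4.18. Among surface proteins that antibody drugs bind, 16 of 22 were above background (72.7%, beside 64.9% of all genes). The carcinoembryonic antigen gene CEACAM5 gave 9.23, 9.19 and 9.34 and SLC39A6, a zinc transporter, was at 11.71. MSLN, which encodes mesothelin, was low at 5.55.

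Within the families of adhesion and matrix genes, a few members were high. Of 48 keratin genes 32 were near background and 5 were high, KRT10 at 10.24 beside the simple epithelial keratins. Of 22 claudins, the strand proteins of tight junctions, CLDN1 was the high one at 11.63, 11.69 and 11.74. The fibronectin and collagen receptor subunit ITGB1 had a mean of 13.10 ± 0.0847 (SD, n = 3) and the laminin chain LAMB1 gave 10.91, 10.95 and 11.01. Of 43 collagens 25 were near background, and COL5A2 was the high one at 11.04, 11.13 and 11.09. In the Hippo pathway TEAD1 was high at 10.74, 10.83 and 10.89, but in the middle band at 6.03 without the sets named _s_at or _x_at. YAP1 gave 9.74, 9.81 and 9.99. Of the known targets of YAP1 and TEAD1, CRIM1 was high at 10.37, 10.27 and 10.52. CCN1 was in the middle band at 8.79, 8.70 and 8.82 and CCN2 was near background at 4.05, 4.53 and 4.76.

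The cultures differed little, and in the genes with the largest SD replicate 3 usually stood apart. It was the farthest from the median in all of the 10 genes above background with the largest SD and lowest in 9 of them, and it was the farthest in 81 of the top 100, where it was lowest in 38. Over all genes above background replicate 1 was the farthest in 39.4%, replicate 3 in 36.3% and replicate 2 in 24.3%. The lysosomal protease gene CTSZ gave 9.91, 10.24 and 8.53, the calcineurin subunit gene PPP3R1 gave 9.38, 9.78 and 8.08 and the nuclear RNA MALAT1 gave 10.62, 10.30 and 9.28. ABCA1, a cholesterol exporter, ran the other way at 6.69, 7.20 and 7.99. The 3 control probe sets for the 18S ribosomal RNA were also lower on replicate 3, the brightest at 14.06, 14.06 and 13.40. Those for the large-subunit ribosomal RNA were mixed. The brightest of these was lower on replicate 3, at 11.11, 11.64 and 9.91. The others were highest on replicate 3, at 6.84, 6.87 and 7.47 and at 9.19, 9.78 and 9.85. The part of ribosomal RNA in the differences between cultures was not tested. Without replicate 3, 11897 genes were above background, and none of the 4 markers changed band.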

How the data were processed

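The series holds 9 PrimeView arrays of NCI-H1993 RNA. Deposited values are log2 signals per probe set that the authors obtained with RMA in Expression Console, versions not given. RMA removes background, equalizes the distribution of the arrays and summarizes probes, so the values do not reflect total RNA per cell. Extraction and labelling notes mention a different line and kit than the sample labels, which decided the groups.

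The 3 siControl arrays were used and 6 siTDRD9 arrays were not. Of the probe sets, 102 controls, 1832 naming several genes and 2473 naming none were left out, and each gene took its brightest set. Named genes were the 4 markers, the 20 brightest, the key, 3 highest and 3 lowest members of each list, the 10 with the largest SD and the neighbours of MET and TDRD9. Other names, the family patterns and the run of high genes were chosen after values were seen, and members and lists with earlier results of these data known. Promoter windows reached from 250 bases before to 50 after each start. On simulated data the bands of 200 of 200 genes were recovered. These genes were placed well away from the band limits, so this checks the code and not calls near a limit. Python 3.11.15, pandas 2.3.3, numpy 2.4.6 and matplotlib 3.10.9 were used. Alternatives covered the probe sets, the ceiling, the scaling, the high threshold and each replicate left out.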

Additional observations from a re-analysis of the deposited data

How the results depend on the processing

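No paired analysis was possible because a single group was described and no test was made. Against 11761 genes above background, 5930 near it, 441 on both sides and 1686 high, the other probe set choices, ceilings and scaling in the plan kept each of these 4 whole-array counts within 1.5 times. Counts of list members moved more: of 63, 14 moved by over 1.5 times with the mean of all probe sets of a gene, 4 without sets named _s_at or _x_at, 5 with sets that name several genes, 19 with the 99th percentile as ceiling and 21 with the ceiling from other silent genes, and 97, 43, 50, 81 and 88 of 500 named genes changed band. Leaving out a replicate gave 11802 to 11897 above, 5956 to 6025 near, 279 to 305 on both sides and 1721 to 1736 high. With the 95th percentile as the high threshold 834 genes were high. With the hair-gene ceiling of 7.75, chosen after seeing the data, 6164 were above and 11476 near background, 45 of 63 list counts moved by over 1.5 times and 142 of 500 named genes changed band. Under it 4 of 27 piRNA and Tudor genes, 8 of 46 receptor kinases and 4 of 24 lung lineage genes were above, and TDRD9 was near background. Of 8774 genes above background with several sets, 3686 had a set that was not. Without sets named _s_at or _x_at, 29 of 39 cytosolic ribosomal protein genes still measured were above background. Among other genes given above, CXCL8, TDRKH and ERBB3 then lay in the low band and ATP5MJ in the middle band at 5.99. The share of CpG-rich windows near background was 23.5% under the stricter rule, against 35.4%. The cause of these moves was not tested, and signal over background, which sets what a call can show, could not be adjusted for probe composition.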

Other observations

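Genes without protein products were less often above the ceiling than the array as a whole. By the RefSeq gene type, 122 of 446 long noncoding RNA genes (27.4%) and 84 of 275 transcribed pseudogenes (30.5%) were above background, beside 66.7% of 17257 protein-coding genes. Hosts of small nucleolar RNAs were prominent among the 7 high noncoding genes: SNHG29 ranged from 11.88 to 12.11, ZFAS1 gave 11.81, 11.79 and 11.76, SNHG32 gave 11.52, 11.52 and 11.54 and SNHG8 gave 11.15, 11.15 and 11.08. CRNDE, a transcript first described in colorectal neoplasia, gave 11.03, 11.06 and 11.02, and NORAD, which binds Pumilio proteins, gave 10.97, 10.94 and 11.10.

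The other runs of at least 5 neighbouring high genes held known secretory and actin genes. In the first, BZW2 gave 11.13, 11.25 and 11.25, TSPAN13 gave 11.80, 11.95 and 11.85, and AGR2, AGR3 and the dioxin receptor gene AHR followed, the last at 10.98, 11.06 and 11.26. The other ran over the actin branching genes ARPC1A and ARPC1B, PDAP1, BUD31 and CPSF4 to ATP5MF. CYP1B1, a cytochrome that AHR induces, was the high one of 47 cytochrome P450 genes at 11.72, 11.73 and 11.56, and CYP1A1 gave 7.44, 7.13 and 6.72.

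HOX and SOX genes lay outside the high band. Of 27 HOX genes 15 were above background (55.6%, beside 64.9% of all genes), and HOXA2 was the HOXA gene measured. HOXB7 gave 8.54, 8.54 and 8.58 and HOXC13 gave 8.29, 8.37 and 8.26. Of 19 SOX genes 11 were above background (57.9%), and SOX9, a factor of lung and gut progenitors, was the brightest at 9.51, 9.62 and 9.63. Of 486 zinc finger ZNF genes 324 were above background (66.7%, beside 64.9% of all genes). High were 5, a share of 1.03% against 9.3% over all genes. Of 67 protocadherin genes 58 were near background, and PCDH7 lay in the middle band at 9.39.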
